A study of Mus musculus with 11 samples.

Results

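The 10 genes described here make the machinery that turns prohormones into hormones and packs them into secretory granules. They are the convertases Pcsk1 and Pcsk2, the carboxypeptidase Cpe, the convertase partners Pcsk1n and Scg5, and the granins Chga, Chgb, Scg2, Scg3 and Vgf. They were chosen by name, as every region or window that the deposited tables assign to 1 of these symbols, out of 16445 genes with an H3K27ac region. That gave 37 of 31479 H3K27ac regions in all 10 genes, 6 of 20086 H3K27me3 regions in 2 genes, and 10 of 22332 ISL1 windows.

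Chromatin was profiled by CUT&Tag, a method in which an antibody directs a transposase to a histone mark or a DNA-bound protein. H3K27ac marks active promoters and enhancers, and H3K27me3 is the Polycomb mark of silenced genes. Both were measured at postnatal day 9 (P9) in Isl1CKO mice (Isl1loxP/loxP;Neurod1-cre) and in Control mice (Isl1loxP/+;Neurod1-cre), with 2 libraries per mark and genotype. For ISL1 itself there were Control cells only, from E14.5 (2 libraries, 1 deposited column) and P9 (1 library). All groups carried Neurod1-cre and at least 1 floxed Isl1 allele, so the Control is heterozygous once Cre has acted. The Neurod1-cre transgene is active in the endocrine lineage, and the cells were sorted by the tdTomato that it switches on from the Ai14 reporter. The mice were littermates of both sexes on a C57BL/6 background, and per the series design each replicate pooled 3 to 4 pancreases and about 20000 cells.

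Prohormones enter the secretory granule as inactive precursors. PC1/3 (Pcsk1) and PC2 (Pcsk2) cut them at pairs of basic residues, and carboxypeptidase E (Cpe) trims the residues left at the cut end. ProSAAS (Pcsk1n) inhibits PC1/3, the 7B2 protein (Scg5) is a chaperone and inhibitor of PC2, and the granins aggregate in the acidic granule, help to form it and are themselves cut into peptides. In islets, PC1/3 is best known for its part in making insulin and PC2 for its part in making glucagon.

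Promoter sequences were matched by symbol in RefSeq (GRCm38.p6) for 8 of the 10 genes, all but Cpe and Vgf. The 250 bases before the RefSeq start are shown for 5 genes, because they carry the cyclic AMP response element TGACGTCA or its shorter form TGACG, the most frequent motif among those searched. Capitals mark TGACG or its reverse CGTCA, which overlap in the full element. The positions on GRCm38, which differ from those of the measured regions on GRCm39, are chr13:75089607-75089856 (plus strand) for Pcsk1, chr2:132781392-132781641 (plus strand) for Chgb, chr1:79440027-79440276 (minus strand) for Scg2, chr12:102554691-102554940 (plus strand) for Chga and chr2:143545883-143546132 (plus strand) for Pcsk2.
Pcsk1: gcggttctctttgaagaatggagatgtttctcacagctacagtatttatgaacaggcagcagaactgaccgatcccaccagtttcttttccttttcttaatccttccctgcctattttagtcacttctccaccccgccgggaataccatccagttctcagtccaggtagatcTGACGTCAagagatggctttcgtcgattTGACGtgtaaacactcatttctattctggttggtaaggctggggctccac
Chgb: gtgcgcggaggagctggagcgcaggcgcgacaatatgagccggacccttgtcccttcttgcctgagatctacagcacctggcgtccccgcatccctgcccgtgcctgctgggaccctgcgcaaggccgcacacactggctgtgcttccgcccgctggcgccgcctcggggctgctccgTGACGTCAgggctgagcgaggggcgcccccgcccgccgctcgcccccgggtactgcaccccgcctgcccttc
Scg2: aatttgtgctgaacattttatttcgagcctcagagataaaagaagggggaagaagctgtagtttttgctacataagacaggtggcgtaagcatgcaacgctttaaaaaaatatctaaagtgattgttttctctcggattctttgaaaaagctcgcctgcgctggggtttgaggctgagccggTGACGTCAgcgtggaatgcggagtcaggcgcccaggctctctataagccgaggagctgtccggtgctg
Chga: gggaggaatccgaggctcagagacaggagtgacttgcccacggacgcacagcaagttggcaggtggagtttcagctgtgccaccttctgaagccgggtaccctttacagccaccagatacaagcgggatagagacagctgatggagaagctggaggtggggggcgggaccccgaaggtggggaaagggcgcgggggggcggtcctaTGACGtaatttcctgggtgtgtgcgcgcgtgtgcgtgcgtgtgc
Pcsk2: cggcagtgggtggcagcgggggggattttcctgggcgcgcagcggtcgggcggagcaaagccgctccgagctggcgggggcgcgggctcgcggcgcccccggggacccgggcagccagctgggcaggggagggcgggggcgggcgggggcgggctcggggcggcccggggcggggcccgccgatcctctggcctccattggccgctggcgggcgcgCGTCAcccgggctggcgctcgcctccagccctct

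The full element TGACGTCA stood at positions -78, -72 and -68 from the start in Pcsk1, Chgb and Scg2, so 3 of the 8 promoters held it, against 1.79% of the 32851 promoters in the table. TGACG on either strand, which the full element contains, was present in 7 of 8 (all but Pcsk1n), against 20.8% of all promoters. These counts took in the 250 bases before and the 50 bases after the start on both strands. TGACG contains the pair CG. For observed over expected CG pairs the 8 promoters stood between percentiles 52.9 (Scg5) and 83.8 (Scg2) of all promoters. The shares of all promoters were not matched for this. The LIM-homeodomain motif CTAATG was in 0 of 8 (7.36% of all) and its core TAAT in 5 of 8 (58.0%). The GC box GGGCGG was in 6 of 8 (35.7%), 7 of its copies in Pcsk2, whose whole searched window was 76.3% G and C. The E box CAGNTG was in 6 of 8 (51.4%). The TATA box letters TATAAA were in 1, Chga (13.6%), at position 5, after the start and outside the sequence shown. Of the REST element, the left part TCAGCACC was in Scg2 alone (1.65%) and the right part GGACAGCGC in none (0.405%). These are matches of letters in a window and say nothing of binding.

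The H3K27ac libraries had 1307049 and 1815511 counts (Control) and 681047 and 1441926 (Isl1CKO), and the H3K27me3 libraries had 1202276 and 1750706 (Control) and 2276887 and 2260039 (Isl1CKO). Control replicate 2 of H3K27ac stood apart: its correlation with the other libraries across regions was 0.451 to 0.497, against 0.692 to 0.722 for the closest partner of each of the others. Fold changes whose sign turned on it are therefore also given without it, here or among the alternatives. Of the 9 endocrine marker genes, 9 had an H3K27ac region, with summed promoter levels of 812 to 1091 CPM (counts scaled to library size) per library. Among markers of other cells, 2 of 8 acinar, 5 of 8 ductal, 2 of 6 endothelial, 1 of 6 mesenchymal, 1 of 6 immune and 4 of 9 neuronal and glial genes had one. Over all genes with an ISL1 window, 44.4% had one. The acinar genes without any region included Ptf1a, Cela1 and Amy2a5. Those with one were Cpa1, at 95.7 and 61.4 CPM in Control, and Bhlha15, at 86.5 and 52.6 CPM. In bulk chromatin of sorted cells, fewer cells of a type and less signal per cell cannot be told apart.

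None of the 37 H3K27ac regions passed an adjusted p of 0.05 in edgeR's quasi-likelihood test of Isl1CKO against Control, nor did any of the 30036 regions tested (0.0%). DESeq2 called 27 regions, 0 of them among the 33 regions of these genes for which it gave an adjusted p. Of the 35 regions of these genes that passed the filter on low counts, 16 had a positive and 19 a negative log2 fold change, with a median of -0.14, against -0.03 over all regions. An unadjusted p below 0.05 was found at 3 of the 35, against 5.83% of all regions. The Isl1CKO pair was lower than the Control pair without overlap at 8 of the 37 regions and higher at 2, against 20.3% and 17.4% of all regions, and the groups overlapped at the other 27. The 3 regions under 0.05 were the promoter of Pcsk1, a distal region of Scg2 and a region downstream of Chga. The direction over the 10 genes depended on scaling. Under the authors' implied library sizes (those that return their deposited values), which move the median of all regions to 0.61, 27 of the 35 were positive, with a median of 0.57. Levels are CPM scaled by TMM factors, and fold changes are relative to that scaling.

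**Figure D1:**
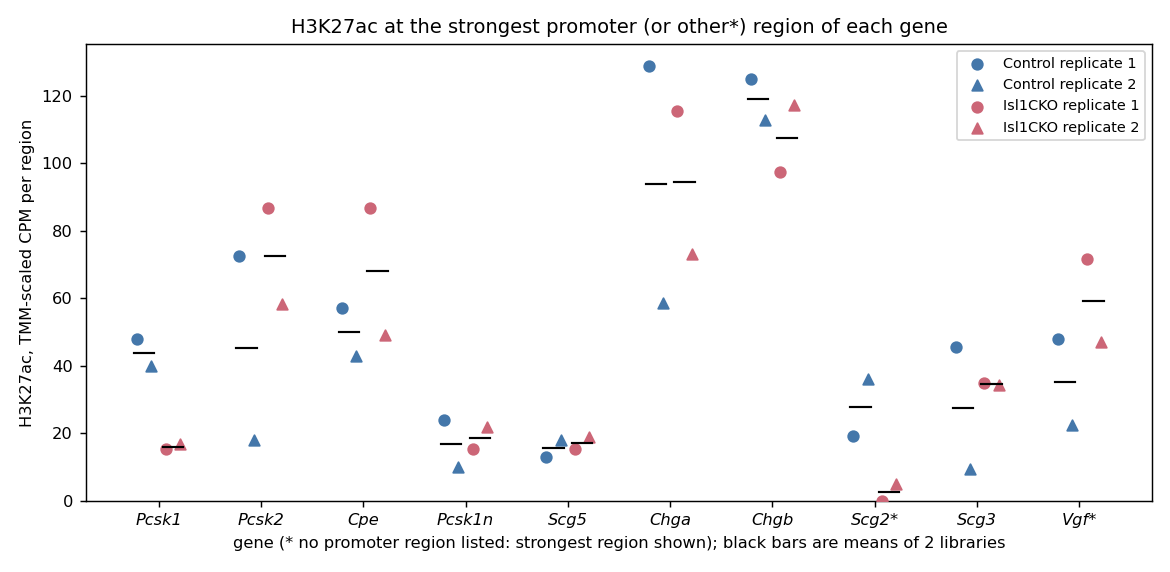
H3K27ac level (TMM-scaled CPM) at the strongest promoter region of each gene in each of the 4 libraries, or at the strongest region of Scg2 and Vgf, which have no promoter region listed, with black bars at the mean of 2 libraries. At Pcsk1 and Scg2 both Isl1CKO libraries sit below both Control libraries, and at the other 8 genes the groups overlap.

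Among the convertases, the promoter of Pcsk1 held less H3K27ac in both Isl1CKO libraries, while that of Pcsk2 did not separate the genotypes. Pcsk1 (ENSMUSG00000021587) had a single H3K27ac region, at its start (chr13:75237661-75238752). It held 62 and 73 counts in Control against 10 and 24 in Isl1CKO, or 47.9 and 40.0 CPM against 15.2 and 16.9. Both Isl1CKO libraries lay well below both Control libraries, and their closeness to each other rests on only 10 and 24 counts. The means were 43.9 ± 5.55 and 16.04 ± 1.17 CPM (SD, n = 2). The log2 fold change was -1.44 (SE 0.61, 95% interval -2.74 to -0.14). The unadjusted p of the edgeR fit was 0.0318 and the adjusted p 0.850. The fold change was -1.57 without Control replicate 2, -1.30 without Control replicate 1 and -0.87 with the authors' implied sizes. In the authors' deposited table this region had a log2 fold change of -0.99 with an adjusted p of 0.0446.

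Pcsk2 (ENSMUSG00000027419) had a region at its start (chr2:143386932-143388153) with 94 and 33 counts in Control against 57 and 83 in Isl1CKO, or 72.6 and 18.1 against 86.7 and 58.3 CPM. The 2 Control libraries were further apart than the genotypes. The log2 fold change of 0.68 (SE 0.56, edgeR adjusted p = 0.916) rested on Control replicate 2: it was -0.03 without that library. It was 1.98 without Control replicate 1, which left replicate 2, the library that stood apart, as the only Control. The authors' deposited table gave 1.26 for this region with an adjusted p of 0.00230. A second region, at -1209 bp, had a log2 fold change of -0.14 (SE 0.86). Another 5 H3K27ac regions inside the gene were assigned to the overlapping transcripts Pcsk2os1 and Pcsk2os2 and are outside the 37. Of these, 2 at the Pcsk2os1 promoter held 65 and 73 counts in Control against 23 and 47, and 35 and 49 against 25 and 42, with log2 fold changes of -0.41 (SE 0.53) and 0.32 (SE 0.59). An intronic region assigned to Pcsk2os1 (chr2:143407105-143407619) held 21 and 34 counts in Control against 0 and 12 in Isl1CKO, so both Isl1CKO libraries were below both Control libraries. Its log2 fold change was -1.86 (SE 1.22, edgeR adjusted p = 0.901), or -1.72 without Control replicate 2 and -1.04 without Isl1CKO replicate 1. With Isl1CKO replicate 2 left out, so that only the library with 0 counts remained, the fitted value was -7.47. The authors' deposited table gave it -1.30 with an adjusted p of 0.0417. The other 2, further into the gene, overlapped between the genotypes, with log2 fold changes of -0.52 (SE 1.17) at the one assigned to Pcsk2os1 and 0.82 (SE 1.11) at the one assigned to Pcsk2os2, which the authors' deposited table called higher (1.30).

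Cpe (ENSMUSG00000037852) was among the most extensively covered of the 10, with 9 H3K27ac regions over its promoter and long first intron, a number reached by 1.71% of genes. Its promoter region (chr8:65144972-65146329) held 74 and 78 counts in Control against 57 and 70 in Isl1CKO, or 57.1 and 42.8 against 86.7 and 49.2 CPM. The groups overlapped, with a log2 fold change of 0.43 (SE 0.47, edgeR adjusted p = 0.930), 0.21 without Control replicate 2. An intronic region at 26753 bp (chr8:65117107-65119335) was of similar height, at 41.7 and 75.1 CPM in Control and 69.99 and 59.7 in Isl1CKO. At 63339 bp (chr8:65080379-65082749) both Isl1CKO libraries, at 42.6 and 45.0 CPM, were above Control, at 37.1 and 23.6, with a log2 fold change of 0.54 (SE 0.55). At 72123 bp, in an exon of another Cpe transcript, both were below, at 7.61 and 9.84 against 21.6 and 13.7 CPM, a log2 fold change of -0.99 (SE 0.94). The groups overlapped at 26753 bp (0.14) and at the other 5 regions, whose log2 fold changes ran from -0.36 to -0.18. Summed over its 9 regions, Cpe held 282 and 231 CPM in Control and 300.4 and 236 in Isl1CKO. That is a log2 fold change of 0.06 with a 95% interval of -0.41 to 0.53 (edgeR adjusted p = 0.968). Of these 9 regions the authors' deposited table called 2, the promoter (1.08) and the region at 63339 bp (1.07), both higher.

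The convertase partners showed no separation at their promoters. Pcsk1n (ENSMUSG00000039278) had 1 region, at its start (chrX:7785697-7786542), with 31 and 18 counts in Control against 10 and 31 in Isl1CKO. In CPM these were 23.9 and 9.87 against 15.2 and 21.8, so the Isl1CKO values lay between those of the 2 Control libraries, and the log2 fold change was 0.16 (SE 0.80). Without Control replicate 2 it was -0.35. Scg5 (ENSMUSG00000023236) had 5 regions, the strongest promoter region 583 bp into the gene (chr2:113658300-113658883), with 17 and 33 counts in Control against 10 and 27 in Isl1CKO. The levels, 13.1 and 18.1 against 15.2 and 19.0 CPM, overlapped, and the log2 fold change was 0.14 (SE 0.80). At the Scg5 start itself (chr2:113659093-113659678) Control replicate 2 was nearly empty, with 2 counts against 22 in Control replicate 1 and 6 and 27 in Isl1CKO, and the log2 fold change of 0.69 (SE 1.19) became -0.23 without that library. Regions at 1374 and 7208 bp overlapped between the genotypes, at -0.81 and 0.63. An intronic Scg5 region at 10996 bp (chr2:113647926-113648470) held 9 and 42 counts in Control against 0 and 3 in Isl1CKO. It was removed by the filter on low counts. Its ratio of Isl1CKO over Control, from summed counts scaled by depth, was 0.0882 with a counting interval of 0.0176 to 0.273. Most of its Control counts came from replicate 2, and without that library the ratio was 0.208 (0.0361 to 0.832). In the edgeR fit with no filter its log2 fold change was -3.45, with an adjusted p of 0.847. The authors' deposited table called this region lower (-2.98) and the regions at 7208 bp (1.14) and at the start (1.24) higher.

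Of the granins, Chga and Chgb had the most counts at their promoter regions, and these did not separate the genotypes. Chga (ENSMUSG00000021194), which encodes chromogranin A, had 12 regions, a number reached by 0.839% of genes. Its promoter region (chr12:102519702-102522858) held 274 counts over the 2 Control libraries and 180 over the 2 Isl1CKO libraries, at 129 and 58.6 CPM in Control replicates 1 and 2 against 116 and 73.1 in Isl1CKO. Each genotype had 1 high and 1 low library, and the means were 93.8 ± 49.7 and 94.4 ± 30.1 CPM (SD, n = 2). The log2 fold change was 0.00079 (SE 0.43, 95% interval -0.90 to 0.90). Leaving out Control replicate 2 gave -0.48, and leaving out replicate 1 gave 0.66. Summed over the 12 regions the levels were 372 and 332 CPM in Control and 368 and 318 in Isl1CKO, a log2 fold change of -0.04 with an interval of -0.44 to 0.35 (edgeR adjusted p = 0.977).

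The 12 Chga regions did not move together. A region 15889 bp beyond the start (chr12:102537117-102538862), in an intron of the neighbouring gene ENSMUSG00000057963, held 10 and 3 counts in Control against 14 and 50 in Isl1CKO. In CPM it was 7.72 and 1.64 against 21.3 and 35.1, so both Isl1CKO libraries were above both Control libraries. Its log2 fold change was 2.63 (SE 0.95), with an unadjusted p of 0.0135 and an adjusted p of 0.846 in the edgeR fit. Leaving out Control replicate 2 gave 1.88, and leaving out replicate 1, which left replicate 2 as the only Control, gave 4.05. Less than 3 kb away, a region at 12845 bp (chr12:102534073-102534694) ran the other way, with 8 and 58 counts in Control against 0 and 4 in Isl1CKO. The filter on low counts removed it. The ratio from its summed counts was 0.0909 with a counting interval of 0.0241 to 0.244. Control replicate 2 again held most of the counts, and without it the ratio was 0.311 with an interval of 0.0686 to 1.16. The edgeR fit with no filter gave this region -3.40, with an unadjusted p of 0.0382 and an adjusted p of 0.839. Regions at 10858 bp (27.8 and 37.3 against 18.3 and 16.2 CPM) and at -7856 bp (43.2 and 33.98 against 33.5 and 21.8 CPM) were also lower in both Isl1CKO libraries, with log2 fold changes of -0.93 (SE 0.66) and -0.50 (SE 0.59). The other 7 regions outside the promoter overlapped between the genotypes, with log2 fold changes from -1.003 to 0.64. The authors' deposited table called the regions at 15889 bp (3.21), 7090 bp (1.19) and 13692 bp (1.03) higher and that at 12845 bp lower (-2.92).

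Chgb (ENSMUSG00000027350), which encodes chromogranin B, had the highest H3K27ac per length of the 10 genes. Its promoter region (chr2:132622910-132624149) held 368 counts over the 2 Control libraries and 231 over the 2 Isl1CKO libraries, at 125 and 113 CPM in Control replicates 1 and 2 against 97.4 and 117 in Isl1CKO. The spread was small and the groups overlapped, with means of 119 ± 8.58 and 107 ± 14.1 CPM (SD, n = 2) and a log2 fold change of -0.14 (SE 0.33, 95% interval -0.84 to 0.56). A region at -2721 bp (chr2:132619520-132620477) held 18 and 31 counts in Control against 1 and 13 in Isl1CKO. Both Isl1CKO libraries, at 1.52 and 9.14 CPM, lay below Control, at 13.9 and 17.0, with a log2 fold change of -1.42 (SE 1.14, edgeR adjusted p = 0.913). Isl1CKO replicate 1 weighed on that value, which was -0.75 without it, and -3.27 without Isl1CKO replicate 2. An exonic region at 4884 bp held 7 and 35 counts against 8 and 1. Over its 3 regions Chgb had a log2 fold change of -0.30 (SE 0.29).

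Scg2 (ENSMUSG00000050711), which encodes secretogranin II, the precursor of secretoneurin, had no promoter region in the H3K27ac table. Its only region lay 38542 bp beyond its start, in intergenic sequence (chr1:79378016-79379295), and held 25 and 66 counts in Control against 0 and 7 in Isl1CKO. In CPM it was 19.3 and 36.2 against 0 and 4.92, where a count of 0 in Isl1CKO replicate 1 allows up to 4.56 CPM. Both Isl1CKO libraries were far below both Control libraries. The log2 fold change was -3.21 (SE 1.07, 95% interval -5.46 to -0.95), with an unadjusted p of 0.00832 and an adjusted p of 0.846 in the edgeR fit. It was -2.68 without Control replicate 2, -3.55 without Control replicate 1 and -2.48 without Isl1CKO replicate 1. Without Isl1CKO replicate 2, which leaves only the library with 0 counts, the fitted value was -8.14. The authors' deposited table gave -2.69 with an adjusted p of 3.85e-05. The file assigns the region to Scg2 by distance alone.

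Scg3 (ENSMUSG00000032181), which encodes secretogranin III, a granin that binds chromogranin A and cholesterol-rich granule membrane, had 1 region at its start (chr9:75590736-75591669). It held 59 and 17 counts in Control against 23 and 49 in Isl1CKO, or 45.5 and 9.32 against 35.0 and 34.4 CPM. The Isl1CKO libraries were nearly equal and lay between the 2 Control libraries. The log2 fold change of 0.36 (SE 0.70) became -0.40 without Control replicate 2, and 1.89 without replicate 1. Another 3 H3K27ac regions within the gene were assigned to Gm37871, with log2 fold changes of -0.01, -0.73 and -0.24.

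Vgf (ENSMUSG00000037428), a granin known as a nerve growth factor-inducible gene, had 2 regions, both annotated as 5′ UTR and 3778 and 4517 bp beyond the start the file uses. The larger (chr5:137059763-137062149) held 62 and 41 counts in Control against 47 and 67 in Isl1CKO, or 47.9 and 22.5 against 71.5 and 47.1 CPM. The lower Isl1CKO library was just under the higher Control library, and the log2 fold change was 0.75 (SE 0.53, edgeR adjusted p = 0.902), 0.28 without Control replicate 2. The authors' deposited table called it higher (1.35). The smaller (chr5:137059024-137059545) held 33 and 2 counts in Control against 8 and 13 in Isl1CKO. Over these 37 regions the authors' deposited table called 9 higher and 4 lower, against 27.8% and 9.25% of all regions.

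**Figure D2:**
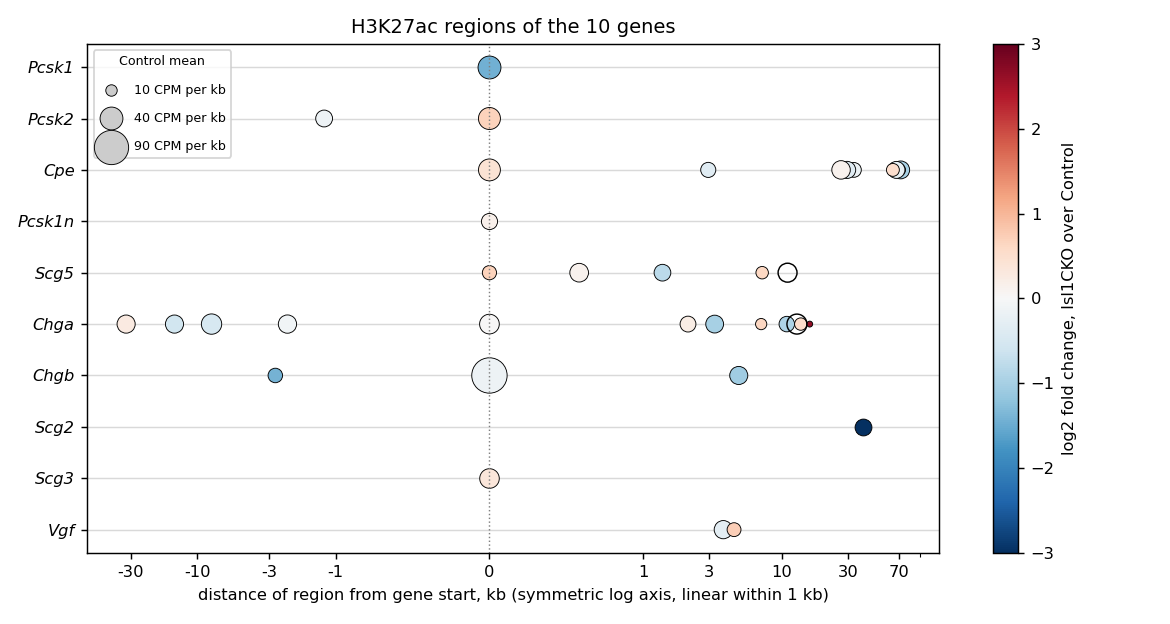
H3K27ac regions of the 10 genes by distance from the gene start (kb, symmetric log axis), with circle area for the Control level (CPM per kb) and colour for the log2 fold change of Isl1CKO over Control; open circles are the 2 regions removed by the filter on low counts. Cpe and Chga carry the most regions, and the strongest blue is the distal Scg2 region.

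Per length, the strongest regions of the 10 genes were spread widely over the range of H3K27ac in Control cells. Chgb, at 95.95 CPM per kb, stood at the 99.9th percentile of the strongest regions of 16445 genes, and at 100.8 and 91.1 CPM per kb in the 2 Control libraries taken alone. Pcsk1 (40.2), Pcsk2 (37.1) and Cpe (36.8 CPM per kb) followed at percentiles 79.5, 73.0 and 72.2, close together and within the spread of the 2 libraries. Chga stood at 58.6, read at its region at -7856 bp, Scg3 at 51.7, Scg5 at 45.6, read at its region at 10996 bp, Vgf at 38.7, Scg2 at 26.3 and Pcsk1n at 21.1. Ranked by CPM per region rather than per length, Chga stood at percentile 91.8 through its promoter and Scg5 at 23.7, with Chgb at 96.1 and Pcsk1 at 63.6. The order below Chgb also depended on the library. Scg3 and Vgf both stood at percentile 87.3 in Control replicate 1 alone, but at 7.27 and 6.70 in Control replicate 2 alone, and Pcsk2 moved from 94.8 to 41.3.

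**Figure D3:**
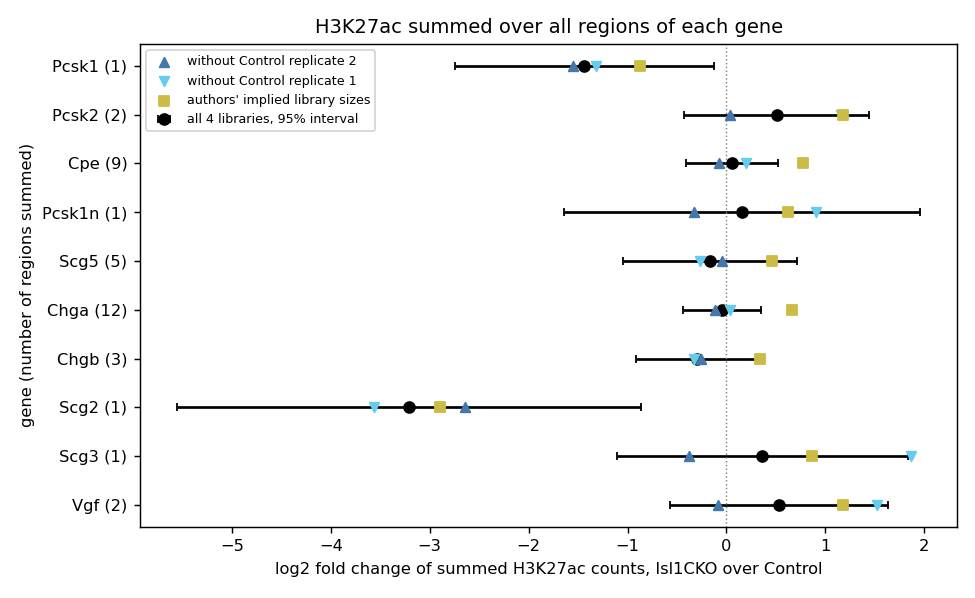
Log2 fold change of H3K27ac, Isl1CKO over Control, with counts summed over all regions of a gene; black points with bars are the fit of all 4 libraries with its 95% interval, and coloured symbols the same without either Control library or with the authors' implied library sizes. Pcsk1 and Scg2 are negative and Pcsk2 positive under each setting shown, while the other 7 genes have symbols on both sides of 0.

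Summed over all regions, 5 genes had a positive and 5 a negative log2 fold change, with a median of 0.01, and 0 of the 10 passed an adjusted p of 0.05, as did none of the 15993 genes tested (0.0%). Pcsk1 and Scg2 had an unadjusted p below 0.05 in the edgeR fit, against 1197 of the 15993 genes tested. DESeq2 called 76 genes, 0 of them among the 10. The count of directions turned on a single library: without Control replicate 2, 1 was positive and 9 were negative. With the authors' implied sizes 8 were positive and 2 negative. Pcsk1, at -1.44 (SE 0.62), and Scg2, at -3.21 (SE 1.12), had the only intervals that left out 0, and they rest on 1 region each.

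H3K27me3 was listed at Pcsk1 and Pcsk1n only, against 19.2% of the genes in the ISL1 table with any such region. None of the 6 regions was called, nor any of the 19434 tested (0.0%), and 0 had an unadjusted p below 0.05 in the edgeR fit (4.34% of all regions). DESeq2 gave none of the 6 an adjusted p. Both Isl1CKO libraries lay above both Control libraries at 2 of the 6, and below at 0, against 18.9% and 16.5% of all regions. Of the 6, the authors' deposited table called 1 higher and none lower, against 9.17% and 29.6% of all regions.

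The promoter of Pcsk1 carried both marks. Its H3K27me3 region (chr13:75237152-75240212) contained all 1092 bp of the H3K27ac region. Among genes with an ISL1 window, 5.07% had promoter regions of both marks, overlapping or not. A promoter region of H3K27ac was listed for 38.6% and of H3K27me3 for 13.8%. Bulk chromatin does not show whether both marks lay in the same cells. The H3K27me3 region held 34 and 93 counts in Control against 65 and 102 in Isl1CKO, or 29.96 and 54.6 against 27.8 and 43.4 CPM. The groups overlapped, and the log2 fold change was -0.26 (SE 0.57), or 0.25 without Control replicate 2 of this mark. At this promoter the H3K27ac measured lower in Isl1CKO, as given above, and the H3K27me3 did not separate the genotypes. Upstream of Pcsk1, 4 further H3K27me3 regions lay between -59699 and -43079 bp. At -59699 bp (chr13:75175629-75178246) Control had 23 and 16 counts against 97 and 51 in Isl1CKO, or 20.3 and 9.40 against 41.4 and 21.7 CPM, a log2 fold change of 1.10 (SE 0.74). At -43079 bp (chr13:75193829-75194866) they were 1 and 12 against 18 and 38, or 0.881 and 7.05 against 7.69 and 16.2 CPM, with 1.53 (SE 1.39). Both Isl1CKO libraries were higher than both Control libraries at these 2, and overlapped with Control at the other 2 (0.12 and -0.02). Summed over its 5 regions, Pcsk1 had a log2 fold change of 0.35 (SE 0.38, edgeR adjusted p = 0.954), or -0.22 with the authors' implied sizes, and none of the 7909 gene sums was called (0.0%).

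Pcsk1n had a sparse H3K27me3 region at 2364 bp (chrX:7788425-7788917) with 7 and 0 counts in Control against 55 and 1 in Isl1CKO. A single library, Isl1CKO replicate 1, held nearly all of it. The log2 fold change of 2.00 (SE 1.90) was -2.60 without that library. The authors' deposited table called this region higher (1.69).

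Vgf was covered by H3K27me3 that the table assigns to its neighbour Gm57316, chosen here after its values were seen. That region (chr5:137053846-137061122) ran over the Vgf start and contained 522 bp and 1360 bp of the 2 Vgf H3K27ac regions. It held 240 and 363 counts in Control against 260 and 469 in Isl1CKO, or 212 and 213 against 111 and 199 CPM. Both Isl1CKO libraries were lower, with a log2 fold change of -0.45 (SE 0.30, 95% interval -1.10 to 0.19; edgeR adjusted p = 1.00), -0.10 without Isl1CKO replicate 1 and -0.93 if replicate 2 was left out instead. The authors' deposited table called it lower, at -0.996 with an adjusted p of 0.00491.

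**Figure D4:**
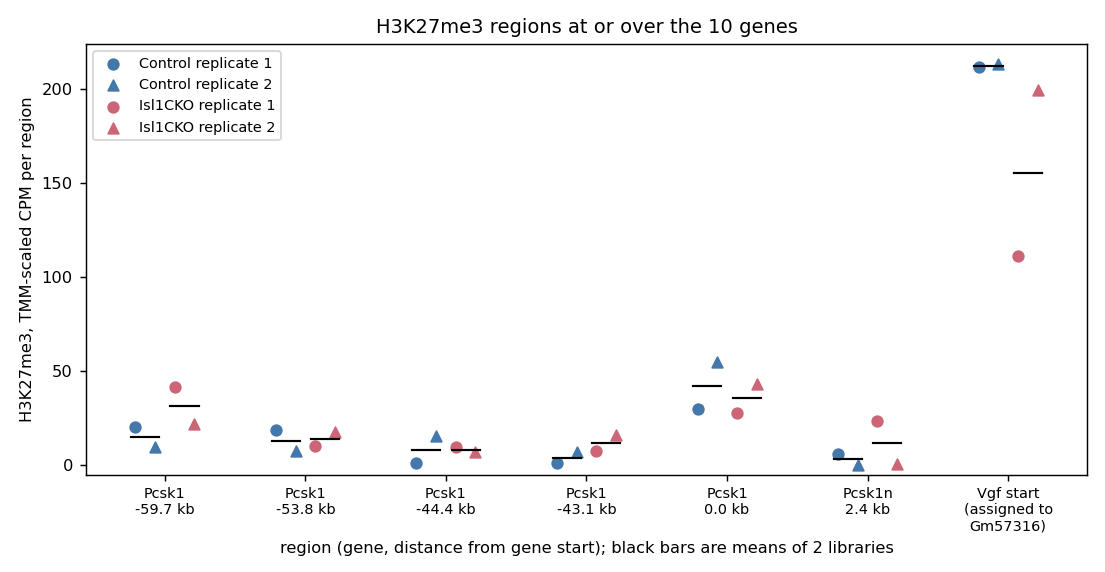
H3K27me3 level (TMM-scaled CPM) in each of the 4 libraries at the 6 regions of Pcsk1 and Pcsk1n, labelled by distance from the gene start, and at the region over the Vgf start that is assigned to Gm57316; black bars are means of 2 libraries. The levels are per region and not per length. The long region over Vgf sits at 111 to 213 CPM, and the Pcsk1n region is carried by 1 Isl1CKO library.

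ISL1, the LIM-homeodomain factor deleted in Isl1CKO, was read in windows of 6000 bp around each start. The table gives whole numbers in a unit it does not state, 1 column per stage, so the values have no replicate error and no test. At E14.5, 6 of the 10 genes had a value of at least 1, against 37.7% of all windows. Chga had 5, a value reached by 2.06% of windows, Chgb had 4 (4.29%) and Pcsk2 had 3 (8.96%). Pcsk1, Scg5 and Vgf had 1, and Cpe, Pcsk1n, Scg2 and Scg3 had 0. At P9 only Pcsk1n had a value above 0, of 1, and 1 of 10 compares with 8.86% of all windows. The 3 genes with the highest values at E14.5 were at 0 at P9, and their H3K27ac promoter regions at P9 had log2 fold changes of 0.00079, -0.14 and 0.68. Pcsk1 and Scg2, each with a single H3K27ac region that was lower at P9 in both Isl1CKO libraries, had ISL1 values of 1 and 0 at E14.5. The Scg2 region lies 38542 bp beyond the start, outside the ISL1 window, so the value of 0 does not describe that region. Both H3K27ac regions of Vgf, 3778 and 4517 bp beyond its start, also lie outside its ISL1 window. The stages differ in their number of libraries, so a change between them was not tested.

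**Figure D5:**
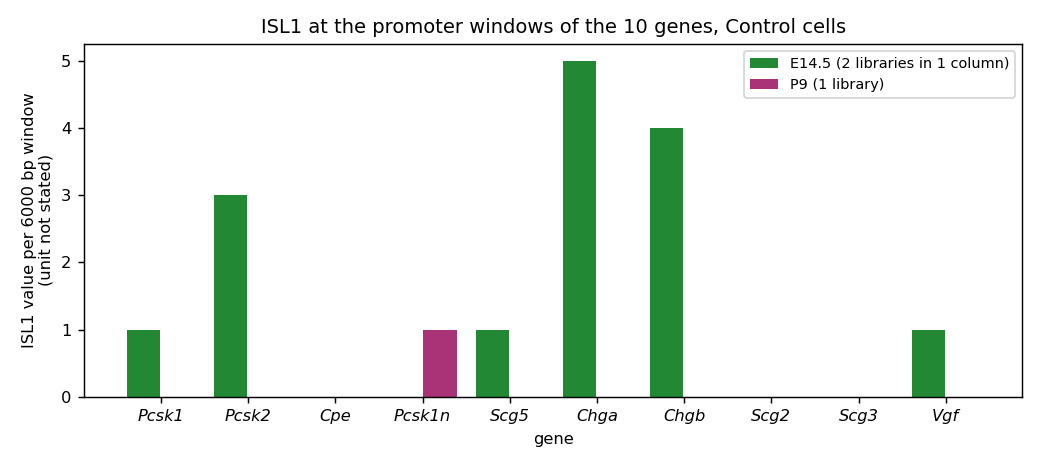
ISL1 value in the 6000 bp window around the start of each gene in Control cells at E14.5 (2 libraries in 1 column) and P9 (1 library); bars start at 0 and the unit is not stated in the file. Chga, Chgb and Pcsk2 have the highest bars at E14.5, of 5, 4 and 3, and Pcsk1n alone has a bar at P9.

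Other genes of the pathway were read at their strongest promoter regions, or at their strongest region where they had none, beside a median of 0.03 over all genes. None was called in the edgeR fit. Among the pathway genes named here, Cpxm1, Pomc and Pyy had an unadjusted p below 0.05 for H3K27ac, and DESeq2 called 1 precursor. Of 5 other convertases with a region, 4 had a positive and 1 a negative H3K27ac log2 fold change (median 0.38). Of 5 other enzymes that trim or modify peptide ends, 2 were positive and 3 negative (median -0.17). Among these, Cpxm1, a carboxypeptidase-like protein, held 30 and 30 counts against 0 and 2, and Pam, which amidates peptide ends, had a log2 fold change of 0.27 (SE 0.50). Of 14 genes of granule formation and sorting, 8 were positive and 6 negative (median 0.19), and of 8 genes of the granule's zinc, acid and ion environment, 5 were positive and 3 negative (median 0.12).

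Of 9 precursors that the convertases cut, 2 were positive and 7 negative (median -1.04, and -0.55 without Control replicate 2), none of them called. That lean rested on Control replicate 1. Without it some of the 7 negative values turned positive, up to 3.26, and negative values no longer prevailed. Pomc, the precursor of corticotropin and melanocortins, had no H3K27ac promoter region and was read at a region annotated as 3′ UTR (chr12:4009579-4010899). It held 31 and 50 counts in Control against 59 and 145 in Isl1CKO, or 23.9 and 27.4 against 89.8 and 102 CPM. Both Isl1CKO libraries were above both Control libraries, with a log2 fold change of 1.90 (SE 0.45, edgeR adjusted p = 0.838). Pyy, the peptide YY precursor, held 97 and 43 counts against 10 and 26. Its log2 fold change of -1.53 (SE 0.67) depended on the Control library: it was -0.48 with replicate 1 left out and -2.14 with replicate 2 left out. Gast, the gastrin precursor, held 28 and 70 against 2 and 30 (-1.21, SE 0.81), and was -1.53 and -0.73 with those libraries left out in turn. Beside these, the acinar enzyme gene Cpa1 held 124 and 112 counts in Control against 12 and 30 in Isl1CKO, a log2 fold change of -1.98 (SE 0.52). The other acinar gene with a region, the transcription factor gene Bhlha15, held 112 and 96 against 46 and 160, with 0.41 (SE 0.41). The summed acinar level was 182 and 114 CPM in Control and 88.2 and 134 in Isl1CKO, and its part in the differences above was not tested. In H3K27me3, the smallest p among the listed precursors was at Pdyn, the prodynorphin gene, with 266 and 275 counts in Control against 821 and 639 in Isl1CKO, a log2 fold change of 0.66 (SE 0.24, edgeR adjusted p = 1.00), or 0.06 with the authors' implied sizes.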

How the data were processed

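Each histone mark had 2 libraries per genotype, and ISL1 was read in Control cells alone. For every histone library the authors deposited unnormalized counts over regions. Beside them the authors deposited a log2 fold change and log2 abundance, a likelihood ratio score, and a p-value with its adjusted form. The deposited ISL1 table holds whole numbers whose unit is not given in the sources used here. Per the submitters' processing notes, GRCm39 was the build and the tools were edgeR 4.0.16, ChIPseeker 1.38.0, MACS2 2.2.6, Picard 2.27.4 and Bowtie2 2.3.5.1.

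Repeated regions were dropped (108 of H3K27ac, 90 of H3K27me3). Chromosome labels in the histone tables followed the alphabetical order of names: 7.48% and 9.25% matched the ISL1 table as deposited, and 100% after relabelling. Counts were fitted over all regions of a mark, and over counts summed per gene, with edgeR 4.0.16 in R 4.3.3 (filterByExpr by genotype, TMM, quasi-likelihood test, Benjamini-Hochberg over all features, adjusted p below 0.05). The filter removed 1443 H3K27ac and 652 H3K27me3 regions. The procedure was tested on simulated data with the same dispersion in every region and no outlying library, unlike the H3K27ac data. SE is the absolute log2 fold change divided by the square root of F, and fit intervals use the fit's degrees of freedom at 95%. The authors' values were returned with a dispersion of 0.04 and library sizes solved from those values, which served as an alternative scaling. Counting intervals (95%, exact) and the floor of 3 counts cover counting error only; the floor spans 1.64 to 4.56 CPM in H3K27ac libraries, 1.28 to 2.64 in H3K27me3 libraries. An exact permutation of 2 against 2 libraries cannot go below 0.333, so none was used.

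Values per library are given for each gene's strongest promoter region, each region with an unadjusted p below 0.05, and each with both Isl1CKO libraries on 1 side of Control and an absolute log2 fold change over 1. At most 3 genes a list were named, those with the smallest p, and 1 gene that this rule selects is not reported here. The members, lists and motifs were chosen with earlier results of these data known. The replicates are separate pools per the series design. The alternatives were other scalings, DESeq2 1.42.0, no filter, the replicate block, promoter regions only, and leaving out each library. The number of columns of per-sample values not used was 0.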

Additional observations from a re-analysis of the deposited data

How the results depend on the processing

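Of the values recomputed for the 35 tested H3K27ac regions, the 6 H3K27me3 regions and the gene sums of the 10 genes, 496 kept their direction and side of the threshold, 71 changed sign and 4 newly passed. DESeq2 values without an adjusted p are left out of these counts. Those that newly passed all came without Control replicate 1 of H3K27ac, which left the library that stood apart as the only Control. Regions called over the whole H3K27ac table numbered 0 in the reported fit, 3 with the authors' implied sizes, 27 with DESeq2, and 0 to 900 leaving out 1 library. Gene sums gave 0, 1, 76 and 0 to 997, the 900 and 997 without Control replicate 1, and 15 and 30 without Control replicate 2. For H3K27me3, DESeq2 called 142 regions and 9 gene sums, and leaving out 1 library 0 to 11 gene sums. Replicate numbers did not pair the samples (correlation of replicate 1 minus replicate 2 between genotypes 0.05 for H3K27ac and -0.01 for H3K27me3). The replicate block called 0 regions of either mark, 63 H3K27ac and 23 H3K27me3 gene sums, none of them of the 10 genes.

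With the authors' implied sizes, H3K27ac regions that changed sign were those of Chga at -14547 bp (0.057), -7856 bp (0.22) and -2224 bp (0.61), Scg5 at 1374 bp (0.15), Chgb at its promoter (0.46), Pcsk2 at -1209 bp (0.57), Vgf at 3778 bp (0.19) and Cpe at 67151, 33133, 29605 and 2942 bp (0.49, 0.29, 0.48 and 0.43). Gene sums were 0.46 for Scg5, 0.66 for Chga and 0.34 for Chgb. H3K27me3 of Pcsk1 was -0.51 at -53781 bp and -0.22 as a gene sum, which was -0.12 from its promoter region alone. Loess offsets gave 0.090 at -14547 bp of Chga, -0.15 at its promoter, 0.011 at -1209 bp of Pcsk2, -0.041 at 26753 bp of Cpe and -0.0066 at -53781 bp of Pcsk1 H3K27me3. The Chga promoter was -0.0086 with RLE factors, -0.049 with library totals and -0.0087 with DESeq2. Pcsk1 H3K27me3 at -44430 bp was 0.073 with library totals and 0.73 with the replicate block, which gave 0.71 for Vgf at 3778 bp. The cause was not tested.

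Leaving out 1 library at a time, H3K27ac promoter values ranged from -0.48 to 0.66 for Chga, -0.029 to 1.98 for Pcsk2, -0.019 to 0.79 for Cpe, -0.40 to 1.89 for Scg3 and -0.35 to 0.92 for Pcsk1n. For Scg5 they ranged from -0.067 to 0.39 at 583 bp and -0.23 to 3.603 at the start. Other regions of Chga ranged from -1.12 to 0.36 at -14547 bp, -0.36 to 0.11 at -2224 bp, -0.037 to 0.45 at 2101 bp, -1.67 to 0.39 at 3273 bp and -0.22 to 1.16 at 13692 bp. Those of Cpe ranged from -2.90 to 0.94 at 70360 bp, -0.75 to 0.35 at 67151 bp, -0.69 to 0.14 at 33133 bp, -1.54 to 0.34 at 29605 bp, -0.22 to 0.62 at 26753 bp and -0.89 to 0.065 at 2942 bp. Chgb at 4884 bp ranged from -3.99 to 0.097, Pcsk2 at -1209 bp from -0.47 to 0.29 and Vgf at 3778 bp from -1.28 to 3.16. H3K27ac gene sums ranged from -0.12 to 0.23 for Cpe, -0.33 to 0.90 for Pcsk1n, -0.15 to 0.063 for Chga, -0.38 to 1.87 for Scg3 and -0.081 to 1.53 for Vgf. H3K27me3 of Pcsk1 ranged from -0.62 to 0.25 at the promoter, -0.40 to 0.88 at -53781 bp and -0.91 to 3.11 at -44430 bp. The Pcsk1n region ranged from -2.60 to 7.68 and its gene sum from -2.55 to 7.69.

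Of the lists, 1 precursor was called with DESeq2 and 0 to 1 leaving out a library, and 0 to 1 other convertase leaving out a library. At least 2 as the ISL1 threshold left 3 genes at E14.5 and 0 at P9, and at least 5 left 1 and 0. The median percentile of the 10 H3K27ac levels, 55.2, was 49.6 to 80.1 in single Control libraries, and that of the 2 H3K27me3 levels, 31.6, was 28.4 to 52.9. Depth limits the weak regions, some of which hold under 10 counts in a library.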
